A study of Mus musculus with 20 samples.

Results

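Accessible sites around 10 genes that control exit from the cell cycle were followed in C2C12, an established line of mouse myoblasts that leave the cycle and fuse into myotubes when they differentiate. The genes were those of the D-type cyclins (Ccnd1, Ccnd2, Ccnd3), the CIP/KIP inhibitors (Cdkn1a, Cdkn1b, Cdkn1c), the INK4 inhibitors (Cdkn2a, Cdkn2c) and the retinoblastoma family (Rb1, Rbl1). The peaks of all 20 libraries were joined into one set of regions wherever they overlapped by 1 bp or more, and every region within 20 kb of a gene's span was taken as an element of that gene. The genes were selected on their function and, for the interior of Ccnd3, on its measured calls by genotype. This gave 94 elements of 101352 regions in all. At the limit of that window, the farthest element inside lay 19.8 kb from Cdkn2c and the nearest region outside lay 20.7 kb from Cdkn1b, each with a peak in 1 library.

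ATAC-seq, in which a transposase cuts and tags open chromatin, was done in wild-type (WT) cells and in 2 Setd2 knockout (KO) lines. Setd2 is the enzyme that trimethylates lysine 36 of histone H3. Cells were sampled at day 0 (D0), and at day 1 (D1) and day 5 (D5) with methionine restricted (MR) or in the control medium (CTL), with 2 libraries in each of the 10 groups: WT replicates 1 and 2, or KO lines 1 and 2 with 1 library each. The labels do not say how the lines were made, whether a line is 1 clone, or whether the WT replicates were separate cultures, so p-values measure only the spread between these libraries, which may be technical. Only peak lists were analysed, so read depth is unknown and the length of a list, from 644 to 69881 peaks, stands in its place. The 2 lists of KO line 1 at D5 were the shortest, with 644 peaks in CTL and 1881 in MR, and held none of the 94 elements, so KO values at D5 rest on line 2 (29963 peaks in CTL and 22062 in MR). The next shortest lists were WT D5 CTL, with 22465 and 20847 peaks. The cells carried peaks within 1 kb of a gene end at the muscle genes Cdh15 and Des in 18 libraries and at Myod1 in 17. The other 3 muscle genes read differed by genotype. Myog had such a peak in 8 WT and 0 KO libraries, Ckm in 5 and 0, and Acta1 in 8 and 1. No library had one at the blood genes Ptprc and Cd3e, the epithelial genes Epcam and Cdh1, the endothelial genes Pecam1 and Cdh5, the liver gene Alb or the neuronal gene Neurod1, whereas the neuronal gene Snap25 had one in 3.

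D-type cyclins bind and activate the kinases CDK4 and CDK6, which phosphorylate Rb and its relative p107 and so free the E2F transcription factors that drive entry into S phase. CIP/KIP proteins (p21 from Cdkn1a, p27 from Cdkn1b, p57 from Cdkn1c) inhibit cyclin-CDK complexes, and INK4 proteins (p16 from Cdkn2a, p18 from Cdkn2c) bind CDK4 and CDK6 directly. In differentiating myoblasts p21 and cyclin D3 are known to rise, cyclin D1 to fall, and Rb to hold the cells out of the cycle.

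Promoter sequences are shown first for 4 genes that each had a start site with a peak that varied between libraries or with no peak at all. The second starts of Ccnd3 and Cdkn1a, with a peak in 18 libraries, are printed beside their upstream starts. The second starts of Cdkn2c (a peak in 12 libraries) and Cdkn2a (in 0) are not printed. Each line gives the 250 bases before a start listed by RefSeq on GRCm38.p6, 5′ to 3′. Capitals mark matches on either strand to 3 motifs: the E2F site (TTTCCCGC, TTTCGCGC, TTTGCCGC or TTTGGCGC), the GC box (GGGCGG) and CCAAT. Among 32619 promoters of this length in the RefSeq table, 1.87% held the E2F letters, 33.0% the GC box and 34.0% CCAAT.
Ccnd3 upstream start, chr17:47504801-47505050, plus strand: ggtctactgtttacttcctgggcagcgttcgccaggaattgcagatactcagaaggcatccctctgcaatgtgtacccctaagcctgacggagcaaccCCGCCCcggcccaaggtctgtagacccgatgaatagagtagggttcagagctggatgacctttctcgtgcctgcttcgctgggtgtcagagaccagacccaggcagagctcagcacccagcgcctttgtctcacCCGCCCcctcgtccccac
Ccnd3 second start, chr17:47593217-47593466, plus strand: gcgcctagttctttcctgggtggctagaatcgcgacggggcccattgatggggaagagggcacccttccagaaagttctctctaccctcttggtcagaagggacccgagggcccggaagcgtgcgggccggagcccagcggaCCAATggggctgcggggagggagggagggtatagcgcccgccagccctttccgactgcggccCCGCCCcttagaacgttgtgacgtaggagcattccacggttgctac
Cdkn1a upstream start, chr17:29090729-29090978, plus strand: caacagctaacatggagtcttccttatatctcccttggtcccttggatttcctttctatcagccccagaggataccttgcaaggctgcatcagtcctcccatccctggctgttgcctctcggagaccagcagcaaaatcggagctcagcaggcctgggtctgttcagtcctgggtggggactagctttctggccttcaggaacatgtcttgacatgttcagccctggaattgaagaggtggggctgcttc
Cdkn1a second start, chr17:29093519-29093768, plus strand: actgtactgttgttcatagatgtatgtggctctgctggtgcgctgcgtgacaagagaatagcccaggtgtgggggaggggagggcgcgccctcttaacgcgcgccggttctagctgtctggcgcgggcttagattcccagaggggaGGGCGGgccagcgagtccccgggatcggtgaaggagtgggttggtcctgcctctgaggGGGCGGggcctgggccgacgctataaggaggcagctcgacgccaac
Cdkn2a outer start, chr4:89294620-89294869, minus strand: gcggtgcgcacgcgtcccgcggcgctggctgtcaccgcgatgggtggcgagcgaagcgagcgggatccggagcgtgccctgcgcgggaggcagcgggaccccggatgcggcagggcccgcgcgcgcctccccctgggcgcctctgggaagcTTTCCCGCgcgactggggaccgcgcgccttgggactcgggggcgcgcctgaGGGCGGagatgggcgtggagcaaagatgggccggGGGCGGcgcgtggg
Rbl1 start, chr2:157204535-157204784, minus strand: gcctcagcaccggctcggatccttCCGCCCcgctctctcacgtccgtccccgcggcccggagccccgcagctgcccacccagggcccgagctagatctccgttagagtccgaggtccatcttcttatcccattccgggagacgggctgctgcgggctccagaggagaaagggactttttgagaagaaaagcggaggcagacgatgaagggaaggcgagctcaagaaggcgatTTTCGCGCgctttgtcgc
The Ccnd3 upstream promoter held 2 GC boxes and the second one held 1 GC box and 1 CCAAT. The Cdkn1a upstream promoter matched none of these motifs and had 2 CpG pairs, against 2 GC boxes and 19 CpG pairs at its second start. The outer Cdkn2a promoter (40 CpG) and the Rbl1 promoter (24 CpG) were the ones among the 10 promoters listed for 6 of these genes with an E2F match, 1 each. A match describes letters in this window and not a bound site.

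Peaks were read in 2 ways: as a call (an element is called in a library when a peak overlaps it) and as a percentile of the peak's −log10 q-value within its own list, where 100 is the strongest peak of that library. Of the 94 elements, 18 lay at Ccnd1, 6 at Ccnd2, 18 at Ccnd3, 11 at Cdkn1a, 14 at Cdkn1b, 5 at Cdkn1c, 2 at Cdkn2a, 6 at Cdkn2c, 6 at Rb1 and 8 at Rbl1. A peak was listed in all 18 libraries other than the 2 short ones at 13 elements: 3 each at Ccnd3 and Cdkn1a, 2 each at Ccnd1 and Cdkn2c, and 1 each at Cdkn1b, Cdkn2a and Rbl1. That is 13.8% of the elements, against 11% of all regions. In 1 library only, 19 elements were called (20.2%, against 20.4% of all regions), 8 of them in KO line 1 at D0, whose list of 63530 peaks was the longest of the KO lists. WT libraries called between 31 of the 94 elements (33.0% in a D5 CTL list, which called 19.6% of all regions) and 66 (70.2% in a D1 MR list, against 66.9%). The KO libraries outside line 1 at D5 called between 19 (20.2% in line 2 at D5 MR, against 21.4%) and 59 (62.8% in line 1 at D0, against 60.6%). In a bulk sample, fewer cells with an open site and a less open site in every cell cannot be told apart.

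**Figure D1:**
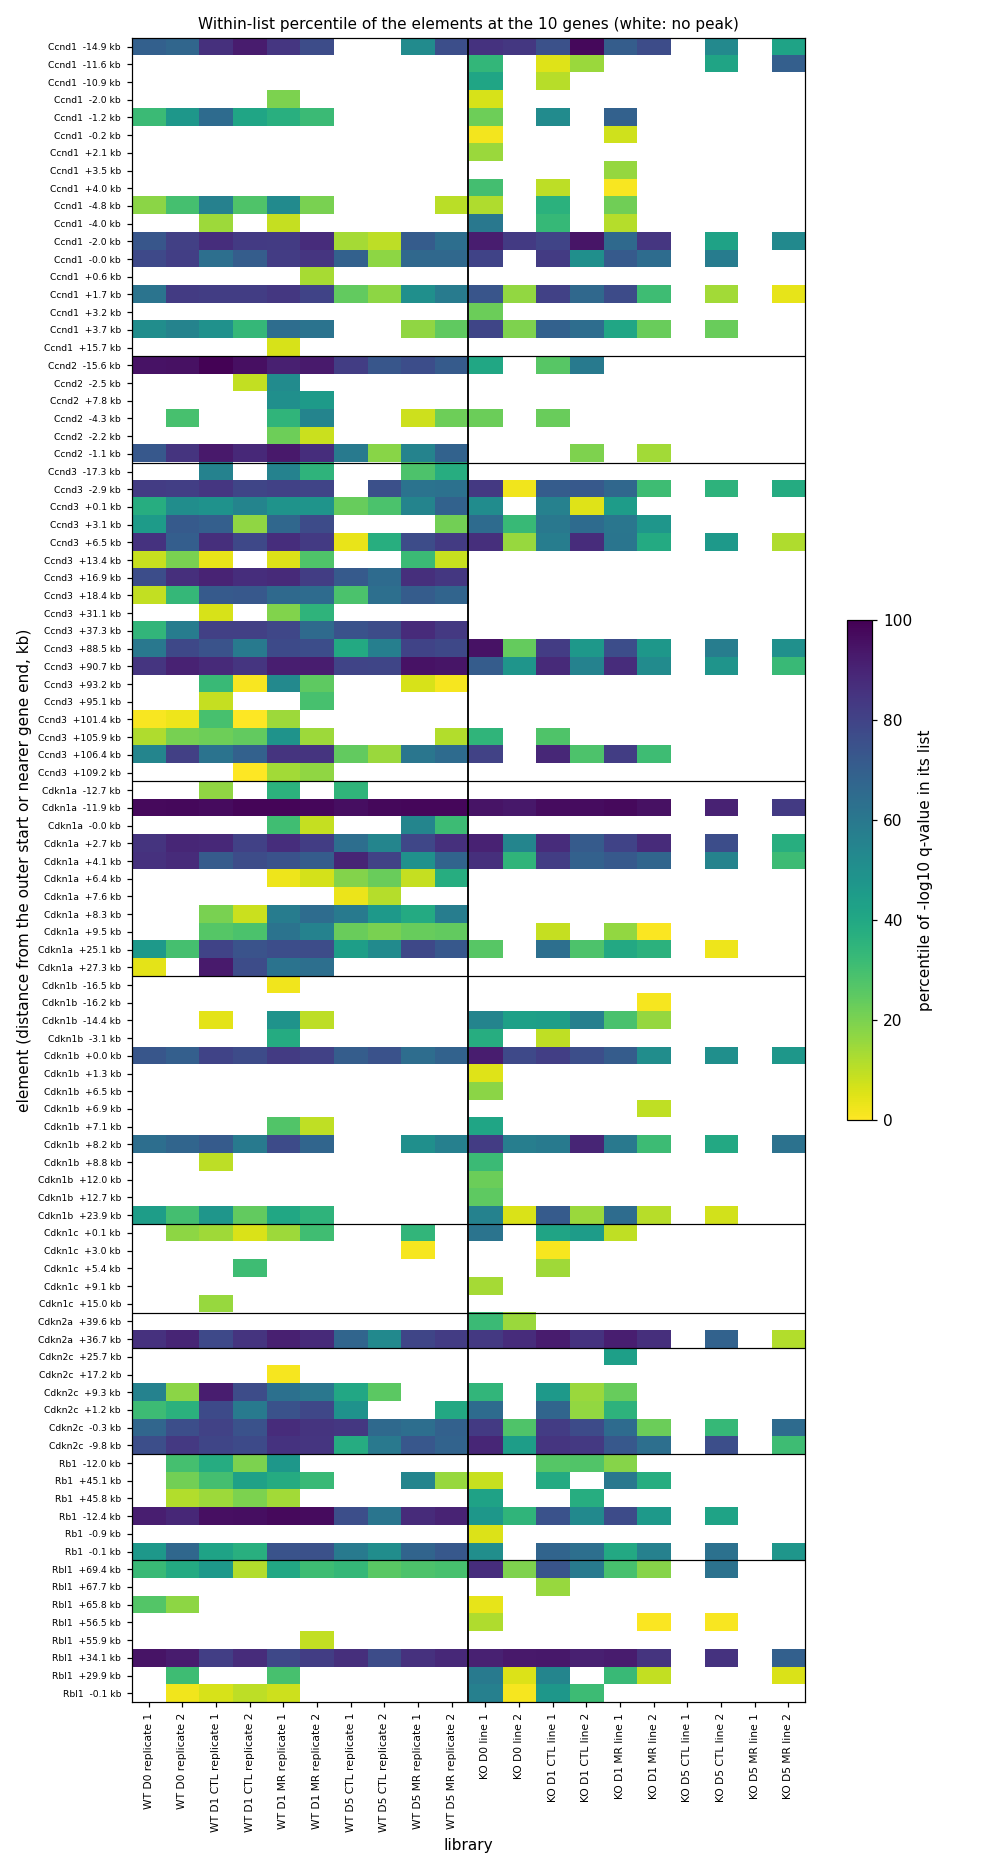
Within-list percentile of the −log10 q-value (colour, 0 to 100) for each of the 94 elements (rows, by gene) in each of the 20 libraries (columns, by genotype, day and medium); blank cells have no peak. The 2 columns of KO line 1 at D5 are blank throughout, and 3 Ccnd3 rows are filled in 10 of 10 WT libraries and blank in 10 of 10 KO libraries.

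Ccnd3, which encodes cyclin D3 (GeneID 12445, chr17:47505051-47599689, plus strand), is a member because of the difference between genotypes inside the gene, so its genotype values are a description and carry no test. Distances are from the upstream start. Between +16.9 and +37.3 kb, 3 elements spanning 20.97 kb were called in 10 of 10 WT libraries and in 0 of 10 KO libraries. Across the genome 100 of 101352 regions had these calls (0.0987%), and the 3 at Ccnd3 were the only ones at the 10 genes. Of those 100 regions, 4 had at least 2 others of the kind within 25 kb, and the 3 at Ccnd3 are among these 4. Because the gene was chosen on these calls, the counts describe the pattern and are no support for it. The second start of the gene was called in KO cells too, as given below.

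The strongest of the 3, at +16.9 kb (chr17:47521647-47522170), had percentiles of 76.5 and 86.5 at D0 in WT cells. Its values were 89.9 and 87.0 at D1 CTL and 88.1 and 81.7 at D1 MR. At D5 they were 71.7 and 64.9 in CTL and 86.6 and 83.8 in MR. It was therefore above the middle of each WT list and absent from each KO list. The D0 list of KO line 1 held 63530 peaks and the WT D0 lists 43058 and 49281, and the part of list length was not tested. Its −log10 q-value in WT cells lay between 7.02 and 30.5, and its fold enrichment, as the authors' peak caller gave it, between 3.95 and 8.98.

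The element at +18.4 kb (chr17:47523182-47523643) had low percentiles in WT cells at D0, 9.13 and 33.2. They were 71.8 and 72.6 at D1 CTL, 65.8 and 65.1 at D1 MR, 28.2 and 63.5 at D5 CTL, and 71.0 and 67.7 at D5 MR. Every D1 value was thus above both D0 values, and the D5 CTL replicates were far apart.

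The element at +37.3 kb (chr17:47542065-47542617) showed the same order in WT cells, with 34.3 and 57.9 at D0, then 81.0 and 80.9 at D1 CTL and 78.8 and 65.6 at D1 MR. At D5 it stood at 74.9 and 76.8 in CTL and at 87.8 and 83.4 in MR. All 8 later values lay above both D0 values. Another intragenic element, at +13.4 kb (chr17:47518365-47518507), was called in 7 WT libraries, with percentiles from 3.20 to 31.7, and in no KO library. Reducing each list to its 20000 strongest peaks left the WT calls of the 3 elements at 10, 6 and 8 of 10 and removed the weak one at +13.4 kb from every library.

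The upstream Ccnd3 start (chr17:47504989-47505242), whose promoter is the first sequence above, had a peak in 10 of 10 WT libraries, at percentiles from 23.2 to 68.4. In KO cells it was called in 4 of 10 libraries: line 1 at D0 (51.5), D1 CTL (56.1) and D1 MR (44.9), within the range of WT, and line 2 at D1 CTL (4.84). The second start (chr17:47593295-47593827) was called in all 18 libraries outside line 1 at D5. At D0, D1 CTL and D1 MR, KO line 1 stood at 95.3, 82.1 and 76.2 and KO line 2 at 23.6, 46.8 and 47.2. Line 2 was below the WT range of 59.2 to 78.2 on those days, and line 1 was within or above it. Another element inside the gene, at +90.7 kb (chr17:47595454-47596109), was likewise called in all 18, at 79.0 to 95.2 in WT cells. KO line 1 had 70.8, 88.0 and 87.3 there at D0, D1 CTL and D1 MR, and line 2 had 47.8, 55.9 and 51.9. Line 2 therefore lay below every WT library at this site while line 1 overlapped WT.

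**Figure D2:**
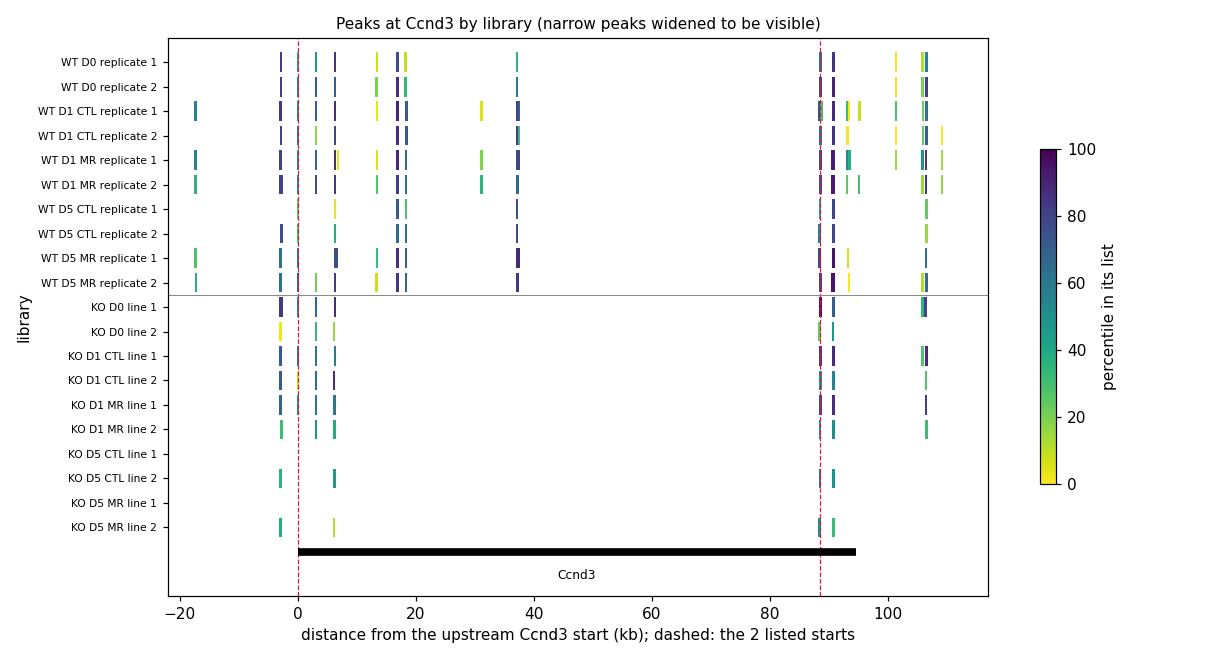
Peaks of each library (rows) along the Ccnd3 locus, as distance in kb from the upstream start; colour gives the within-list percentile. The elements at +16.9, +18.4 and +37.3 kb are filled in the 10 WT rows and empty in the 10 KO rows, while the second start at +88.5 kb is filled in 18 rows.

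Across chromosome 17, and so around Ccnd3 as well, regions ranked lower in KO line 2 than over all chromosomes. Over the 91 regions within 5 Mb of the gene that each of the 12 D0 and D1 libraries called, the median KO minus WT difference in percentile was 4.12, 3.64 and −2.35 in line 1 and −16.1, −5.54 and −11.4 in line 2 (D0, D1 CTL, D1 MR). Over the 792 such regions of chromosome 17 the medians were 3.97, 3.47 and −3.08 in line 1 and −15.3, −4.51 and −15.7 in line 2. Over all chromosomes the medians were 4.87, 4.32 and −3.78 in line 1 and −7.72, 0.32 and −9.43 in line 2. Of 92 flanking regions called in 10 of 10 WT libraries, 0 were missing from every KO library and 54.3% were called in all 8 KO libraries outside line 1 at D5, against 0.632% and 70.5% of 15812 such regions in the genome. The part of this shift of the chromosome in the Ccnd3 values was not tested.

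Other Ccnd3 elements varied with day and medium. The element at +93.2 kb (chr17:47598032-47598552) was called in WT cells in both D1 media and in D5 MR, at percentiles of 1.16 to 53.0, and never at D0, in D5 CTL or in KO cells. The element at +3.1 kb (chr17:47508063-47508185) was called in the 6 WT and 6 KO libraries of D0 and D1 (16.7 to 77.0) and in 1 library at D5, WT MR (21.4). This element is the 1 at Ccnd3 past the test of day that is described under Ccnd1 (exact permutation p = 0.00463, adjusted p = 0.0379). The intragenic element at +6.5 kb (chr17:47511096-47511936) was called in all 18 libraries, with a median percentile of 73.4. It stood at 3.31 and 37.3 in WT D5 CTL, against 76.8 and 82.6 in WT D5 MR.

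Ccnd2 encodes cyclin D2 (GeneID 12444, chr6:127125162-127152188). For Ccnd1, Ccnd2, Cdkn1c and Rb1 no start was in the promoter table, so their distances are from the nearer gene end, negative toward lower coordinates. No library had a peak within 1 kb of either end of Ccnd2. Genotype was tested at each region by permuting the labels within the 5 conditions of day and medium (exact stratified permutation test on calls, two-sided, 7776 arrangements, smallest possible p 0.000257, Benjamini-Hochberg adjustment over 18700 regions whose calls allow a p of 0.05). In that test 16.1% of the 18700 regions were called less often in KO and 2.73% more often. The KO libraries of the 5 conditions come from 2 lines, and the test permutes libraries of the same line as separate ones. Its p-values therefore do not measure the spread between lines. At the 9 genes other than Ccnd3, 4 of 10 testable elements were called less often in KO (40%) and 0 more often, with a median difference in the share of libraries called of −0.50, against −0.30 over all testable regions. Those 4 lay at Ccnd2 and Cdkn1a. At Ccnd3, where the choice of the gene fixes the direction, 5 of 10 were also past the threshold and nothing is read from them.

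The first Ccnd2 element, at −15.6 kb (chr6:127109486-127109729), also lies within 1 kb of an end of Tigar. It had some of the highest percentiles of the 94 elements in WT cells: 95.3 and 95.7 at D0, 99.4 and 96.1 at D1 CTL, and 91.3 and 92.8 at D1 MR. At D5 it stood at 82.0 and 73.4 in CTL and 76.4 and 71.4 in MR. KO cells had a peak in 3 of 10 libraries, line 1 at D0 (40.5) and both lines at D1 CTL (25.9 and 59.3), each below every WT value. The difference in calls was −0.70 (10 of 10 WT against 3 of 10 KO, exact permutation p = 0.00463, adjusted p = 0.0412). Over the alternatives that gave a test the adjusted p ran from 0.0267 to 0.147, and it passed 0.05 when either WT replicate or KO line 2 was left out (0.147, 0.133 and 0.0596), when the D5 libraries of line 1 were (0.0504), and when a peak had to cover 50% of the element (0.0692).

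The second, inside the gene at −1.1 kb (chr6:127150944-127151145), was called in 10 of 10 WT libraries, at 72.4 and 85.0 at D0, 93.1 and 88.5 at D1 CTL, and 93.0 and 86.7 at D1 MR. Its D5 values were lower, 59.3 and 17.6 in CTL and 55.2 and 68.5 in MR. In KO cells it appeared in 2 of 10 libraries, line 2 at D1 CTL (19.3) and D1 MR (13.9). The difference in calls was −0.80 (exact permutation p = 0.00231, adjusted p = 0.0353), with a range over the alternatives of 0.0243 to 0.147. The adjusted p exceeded 0.05 with any 1 WT replicate or KO line left out (0.147, 0.133, 0.0552 and 0.0596) and at 50% coverage (0.0692). Around Ccnd2 0 of 81 flanking regions called in 10 of 10 WT libraries were missing from every KO library, and the flank's median shift in percentile was between −10.8 and 7.23 in the KO lines.

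At D1, 3 Ccnd2 elements were called in both WT MR libraries and in neither WT CTL library. The element at 7.81 kb inside the lower end (chr6:127132902-127133033) had percentiles of 50.05 and 45.69, and that at −2.18 kb (chr6:127149975-127150038) had 22.0 and 7.89, and no other library of the 20 had either. The third, at −4.29 kb (chr6:127147814-127147986), had 34.7 and 55.1 in D1 MR, recurred in D5 MR (7.64 and 22.1) and was absent from D5 CTL. Across the 10 genes, 6 of 72 elements with a call in WT D1 were gained in this way (8.33%, against 10.2% of all regions) and 0 were lost (against 1.75%), so the share was near the background. The WT D1 lists held 69881 and 57676 peaks in MR and 60173 and 45545 in CTL, and the part of list length was not tested. A comparison of 2 libraries with 2 cannot give a p below 0.333. With all 4 strata joined (1296 arrangements), the exact permutation test of restriction called 0% of 3909 testable regions in either direction after adjustment, and 230 at an unadjusted p under 0.05. The single testable member element, at Ccnd2, was not past it.

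Ccnd1, the gene of cyclin D1 (GeneID 12443, chr7:144929931-144939831), had elements called in both genotypes at D0 and D1, some of which were absent or ranked lower in WT D5 CTL. The element at −1.17 kb (chr7:144928589-144928938) had WT percentiles of 31.7 and 47.1 at D0, 65.2 and 41.2 at D1 CTL, and 36.8 and 31.8 at D1 MR. KO line 1 had 22.0, 51.9 and 68.9 in those conditions, and line 2 had no peak. No library of D5 was called in either genotype or medium, a difference of −0.75 in the share of libraries (exact stratified permutation test of day within genotype and medium, p = 0.0139, adjusted p = 0.0379). That test called 66.2% of 16153 testable regions less often at D5 and 0.00619% more often, and 10 of 12 testable member elements less often (83.3%). Without the 2 D5 libraries of KO line 1 it called 0 of 11 member elements at the adjusted threshold and 7 at an unadjusted p under 0.05. The count of 10 was therefore not kept without those 2 short lists, which have a call at no element. Leaving them out also leaves fewer arrangements, and the part of each in the drop was not tested. The same limit holds for every p-value of day given for the other genes.

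At +3.65 kb (chr7:144943321-144943649), Ccnd1 lost its peak in both WT D5 CTL libraries and kept it in WT D5 MR (16.7 and 24.3), below the 33.2 to 64.2 of D0 and D1. Its difference in calls between the days was −0.625 (exact permutation p = 0.0278, adjusted p = 0.0420), and 1 KO library of D5 had it (23.0 in line 2, CTL). The intragenic element at −2.05 kb (chr7:144937596-144937971) was called in all 18 libraries, and in WT cells it stood at 73.2 to 87.4 at D0 and D1, at 13.3 and 10.2 in D5 CTL, and at 70.8 and 63.9 in D5 MR. In KO line 2 it was 42.5 at D5 CTL and 52.6 at D5 MR. The D5 CTL values in WT were below every other value of this element. Its neighbour at +1.72 kb (chr7:144941298-144941812) had the same order in WT, 61.4 to 83.8 early, 24.0 and 17.1 in D5 CTL, and 50.4 and 58.5 in D5 MR. At the gene end (chr7:144939663-144939902) the peak was present in 10 WT and 6 KO libraries, at 17.2 to 84.7 in WT.

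An element at −14.9 kb (chr7:144914406-144915573, also within 1 kb of an end of LTO1) was called in 16 libraries and absent from WT D5 CTL in particular, where both replicates lacked it and both D5 MR replicates had it (51.7 and 75.8). At −11.6 kb (chr7:144918251-144918452), Ccnd1 had an element called in 5 KO libraries (34.0, 5.06, 14.96, 41.4 and 69.9) and in 0 of 10 WT libraries, short of the threshold after adjustment (exact permutation p = 0.0417, adjusted p = 0.0820). Further weak elements at Ccnd1 were called in KO line 1 and not in line 2, such as that at +3.99 kb (29.7, 9.95 and 0.928).

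In WT cells at D5, 9 of 47 member elements with a call were in both MR libraries and neither CTL library (19.1%, against 27.9% of all regions), and 2 went the other way (4.26%, against 0.494%). The 9 were 2 at Ccnd1, 1 at Ccnd2, 3 at Ccnd3 and 1 each at Cdkn1a, Cdkn1b and Rb1, and the 2 were at Cdkn1a and Cdkn2c. The MR lists of D5 were longer (39538 and 39263 peaks) than the CTL lists, and the part of list length in these counts was not tested.

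Cdkn1a encodes p21 (GeneID 12575, chr17:29090979-29100722, plus strand; distances from the upstream start). Of its 11 elements 3 were called in all 18 libraries, and others in the body and at the 3′ end appeared in WT cells with differentiation or restriction. The strongest element of all 94 by mean percentile lay at −11.9 kb (chr17:29078888-29079208). WT libraries had 97.4 and 98.0 at D0, 97.0 and 98.5 at D1 CTL, 98.7 and 98.4 at D1 MR, 96.3 and 97.8 at D5 CTL, and 98.2 and 98.1 at D5 MR. KO lines 1 and 2 had 94.8 and 93.5 at D0, 96.6 and 96.5 at D1 CTL, and 97.4 and 95.6 at D1 MR, and line 2 had 90.2 and 83.2 at D5 CTL and MR. Within each condition the KO values were below both WT values, and the mean KO minus WT difference at D0 and D1 was −2.27 points.

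That difference was tested on percentiles over the 12 libraries of D0 and D1 (exact stratified permutation test, two-sided, 216 arrangements, smallest possible p 0.00926, adjusted over 19629 regions called in all 12). The exact permutation p was 0.00926 and the adjusted p 0.0924, above the threshold. As in the test of calls, libraries of the same KO line were permuted as separate ones. In that test 0% of the 19629 regions passed after adjustment and 21.2% had an unadjusted p of 0.05 or less. The smallest possible p itself had the adjusted p of 0.0924, so no region could pass, and nothing is read from the 0%. Of the 16 elements tested at the genes other than Ccnd3, 0 passed and 2 had an unadjusted p under 0.05, the Cdkn1a element at −11.9 kb and an intragenic element of Rb1. Over 200 regions within 5 Mb of Cdkn1a the median shift was 4.85, 1.70 and −5.62 in line 1 and −16.3, −5.73 and −18.3 in line 2. The medians of chromosome 17, which holds Cdkn1a too, are given under Ccnd3. The part of these shifts in the difference was not tested.

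The Cdkn1a upstream start (chr17:29090879-29091003), whose promoter is shown above, had a peak in the 4 WT libraries under restriction and in no other library. The percentiles were 30.6 and 8.75 at D1 MR and 54.4 and 31.3 at D5 MR. All 4 WT CTL libraries of the same days, both D0 libraries and 10 of 10 KO libraries lacked it. The smallest p its calls allow for restriction is 0.0556, so the exact permutation test cannot call it, and it was left with 1 call among the 20000 strongest peaks of each list. The second start (chr17:29093501-29093920) was called in all 18 libraries at 54.5 to 89.3 in WT, and the element at +4.07 kb (chr17:29094394-29095701) at 49.5 to 89.8.

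At +8.26 kb (chr17:29099192-29099296), near the 3′ end, WT libraries lacked a peak at D0 and had it in 8 of 8 at D1 and D5. The percentiles were 19.95 and 8.06 at D1 CTL, 57.9 and 64.8 at D1 MR, 59.2 and 46.2 at D5 CTL, and 38.9 and 57.7 at D5 MR. No KO library had it. The difference in calls by genotype was −0.80 (exact permutation p = 0.00154, adjusted p = 0.0353, range over the alternatives 0.0352 to 0.147). The adjusted p exceeded 0.05 with WT replicate 1, WT replicate 2 or KO line 2 left out (0.147, 0.133 and 0.0596), at a −log10 q-value of at least 5 (0.0689) and at 50% coverage (0.0699).

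The element at +6.39 kb (chr17:29097235-29097507) was called in WT at D1 MR (2.68 and 6.34), D5 CTL (18.6 and 22.9) and D5 MR (8.61 and 37.5), and in 0 of 10 KO libraries. These are weak peaks. The difference was −0.60 (exact permutation p = 0.00926, adjusted p = 0.0493, range over the alternatives 0.0469 to 0.147), and it was past the threshold only with the replicate block (0.0469) and with peaks joined within 200 bp (0.0493) among the alternatives that gave a test. Across the gene's 3′ end (chr17:29099862-29101013) 8 of 8 WT libraries of D1 and D5 had a peak, between 20.04 and 62.0, highest at D1 MR (62.0 and 55.8). KO cells had 3 weak peaks there, 8.76, 16.3 and 0.709, all at D1 (exact permutation p = 0.0278, adjusted p = 0.0666). An element at +7.62 kb (chr17:29098446-29098754) was called in both WT D5 CTL libraries alone (3.09 and 11.2).

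Between D0 and D1 CTL in WT cells, 3 of 61 member elements were gained (4.92%, against 7.44% of all regions): the Cdkn1a elements at +8.26 and +9.46 kb and the Ccnd3 element at +93.2 kb. The lost one was at Rbl1 (1.64%, against 2.63%). In KO cells 1 of 65 elements was gained, at Rb1 (1.54%, against 1.91%), and 1 was lost, at Cdkn2a (against 0.353%). The 8 libraries of this comparison allow no p below 0.0556. Between D1 and D5 in CTL, WT cells gained 2 of 60 elements (3.33%, against 0.409% of all regions), both at Cdkn1a (+6.39 and +7.62 kb), and lost 16 (26.7%, against 32.9%). In MR they gained 0 of 70 (against 1.69%) and lost 10 (14.3%, against 21.9%).

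**Figure D3:**
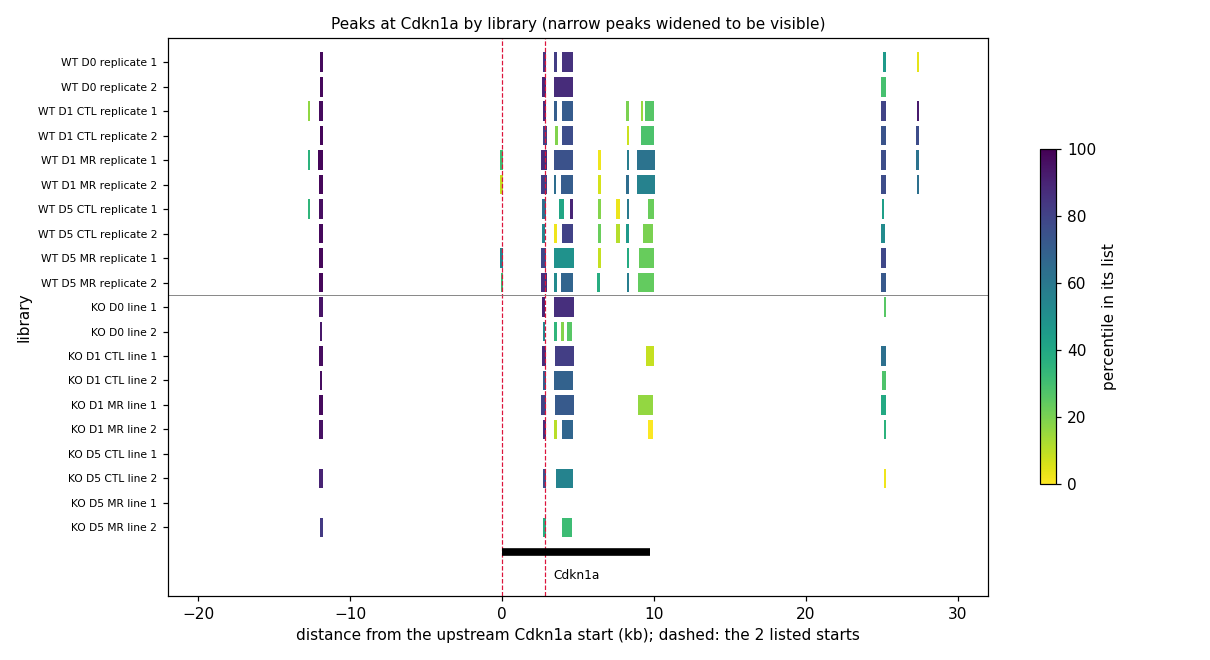
Peaks of each library (rows) along the Cdkn1a locus, as distance in kb from the upstream start; colour gives the within-list percentile. The element at −11.9 kb is filled in 18 rows, the upstream start in the 4 WT MR rows, and the element at +8.26 kb in the 8 WT rows of D1 and D5.

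Cdkn1b, the gene of p27 (GeneID 12576, chr6:134920401-134925525, plus strand), had 14 elements, of which 7 were called in 1 library. Its start (chr6:134920039-134920787) was called in all 18 libraries, at 64.2 to 82.5 in WT and 47.1 to 92.1 in KO, with overlap between genotypes. The element at +23.9 kb (chr6:134944047-134944623) was called in each of the 12 D0 and D1 libraries, at 24.0 to 47.4 in WT. At D5 it was called in 1 library, KO line 2 CTL (6.86), a difference of −0.875 (exact permutation p = 0.00463, adjusted p = 0.0379). Upstream at −14.4 kb (chr6:134905955-134906072), 6 of 6 KO libraries of D0 and D1 had a peak, between 15.7 and 56.7. In WT cells 3 of 6 had one, at D1 CTL (4.01) and D1 MR (48.5 and 9.84), and no D5 library did (exact permutation p = 0.00463, adjusted p = 0.0379 for day). The element at +8.18 kb (chr6:134928310-134928855) was present in 16 libraries and absent from both WT D5 CTL libraries, while D5 MR had 50.4 and 56.4.

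Cdkn1c, the imprinted gene of p57 (GeneID 12577, chr7:143458339-143461059), had 5 elements, none called in all 18 libraries. The one at its gene end (chr7:143460987-143461235) was called in 6 WT and 4 KO libraries. WT percentiles were 16.9 at D0, 14.2 and 5.69 at D1 CTL, 14.7 and 30.5 at D1 MR and 34.3 at D5 MR. KO values were 61.4 at D0 and 9.40 at D1 MR in line 1, and 41.4 and 44.8 at D1 CTL. The share of libraries called was lower by 0.75 at D5 (exact permutation p = 0.0139, adjusted p = 0.0379).

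Cdkn2a, which encodes p16 and ARF (GeneID 12578, chr4:89274473-89294619, minus strand), was the one gene of the 10 with no peak in its span or at its starts in any of 20 libraries. The nearest peak on the lower side was the element at chr4:89257832-89258074, 16.4 kb from the gene. It was called in all 18 libraries, with percentiles of 85.8 and 89.5 at WT D0, 52.6 to 91.1 across the later WT libraries and 11.4 to 92.4 in KO. On the upper side the nearest region lay 210.7 kb away (chr4:89505338-89505787) and was called in KO line 1 at D0, D1 CTL and D1 MR. The stretch without a peak was 247.3 kb long and also held Cdkn2b, the gene of p15. Gaps between neighbouring regions had a median of 6.62 kb, and 1259 of 101332 were as long (1.24%), of which 522 held a protein-coding gene.

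The outer Cdkn2a promoter printed above is rich in CpG, with 40 in 250 bases and 78.4% GC. Of 429 promoters with as many CpG pairs, 321 (74.8%) overlapped a peak in at least 1 library and 108 did not. Over all 32619 promoters the share was 38.8%. A stretch without a listed peak says only that the peak caller listed none in it. A weak element at chr4:89254949-89255030 completed the 2 of this gene, with 31.8 and 14.9 in KO lines 1 and 2 at D0 and no peak elsewhere.

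**Figure D4:**
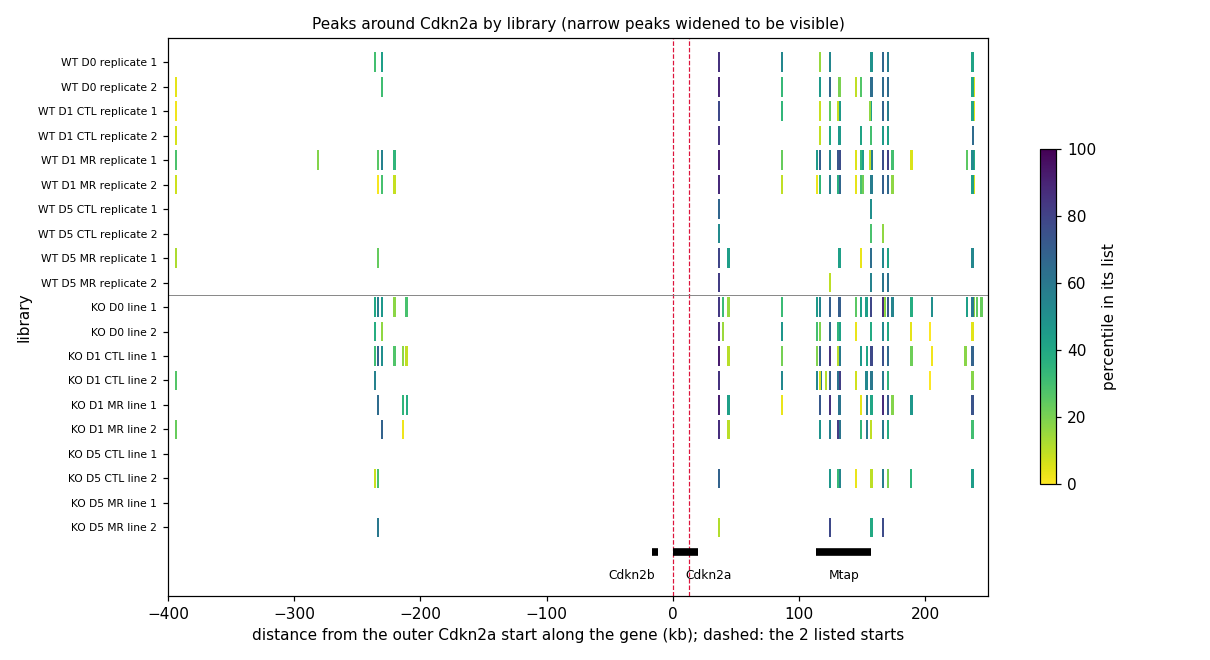
Peaks of each library (rows) around Cdkn2a and Cdkn2b, as distance in kb from the outer Cdkn2a start; colour gives the within-list percentile. No row has a peak in the 247.3 kb that hold both genes.

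Cdkn2c, the gene of p18 (GeneID 12580, chr4:109660876-109666756, minus strand), had a peak at its outer start (chr4:109666756-109667263) in all 18 libraries. WT values lay between 63.8 and 87.2. KO line 1 had 83.0, 82.4 and 64.9 at D0, D1 CTL and D1 MR, and line 2 had 27.6, 77.3 and 22.3. The element downstream of the gene at +9.35 kb (chr4:109657061-109657760) was highest in WT at D1 CTL, 92.0 and 76.8, after 55.9 and 17.6 at D0, and it was 63.0 and 60.5 at D1 MR. At D5 it was kept in CTL (40.1 and 25.1) and absent in MR, the reverse of the other elements with separate calls at D5 except the one at Cdkn1a named above. KO cells had it at 34.0, 45.8, 15.1 and 23.4 and at no D5 library (exact permutation p = 0.0278, adjusted p = 0.0420 for day).

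Rb1, which encodes Rb (GeneID 19645, chr14:73192858-73325951), had 6 elements over 133.1 kb. A peak at its higher end (chr14:73325522-73326244) was called in 17 libraries, at 36.9 to 75.2 in WT and 39.5 to 67.8 in KO, with the genotypes overlapping. The intragenic element 12.4 kb from that end, at −12.4 kb (chr14:73313367-73313709), ranked lower in both KO lines. WT libraries had 91.5 and 88.8 at D0, 95.7 and 96.3 at D1 CTL, and 97.6 and 97.2 at D1 MR. KO lines 1 and 2 had 47.1 and 34.4 at D0, 74.7 and 52.6 at D1 CTL, and 77.2 and 45.7 at D1 MR. Every KO value was below every WT value of these days.

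The mean KO minus WT difference was −39.2 percentile points (exact stratified permutation p = 0.00926, the smallest possible, adjusted p = 0.0924). It did not pass after adjustment, and no region could in that test. By line and condition the element's difference was −43.1, −21.3 and −20.2 in line 1 and −55.7, −43.5 and −51.7 in line 2. The medians over 94 flanking regions were 2.12, 2.76 and −4.65 in line 1 and −18.6, −2.40 and −14.8 in line 2. Over chromosome 14 they were 4.14, 4.41 and −2.01 in line 1 and −13.5, −3.15 and −17.1 in line 2. The part of these shifts in the element's difference was not tested. At D5 WT cells had 76.0 and 61.3 in CTL and 87.7 and 90.2 in MR, and KO line 2 had 42.1 in CTL and no peak in MR. The element at 45.1 kb inside the lower end (chr14:73237830-73238098, within 1 kb of an end of Lpar6) was missing at D5 CTL in WT and present at D5 MR (54.5 and 15.5), with fewer calls at D5 (exact permutation p = 0.0278, adjusted p = 0.0420).

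**Figure D5:**
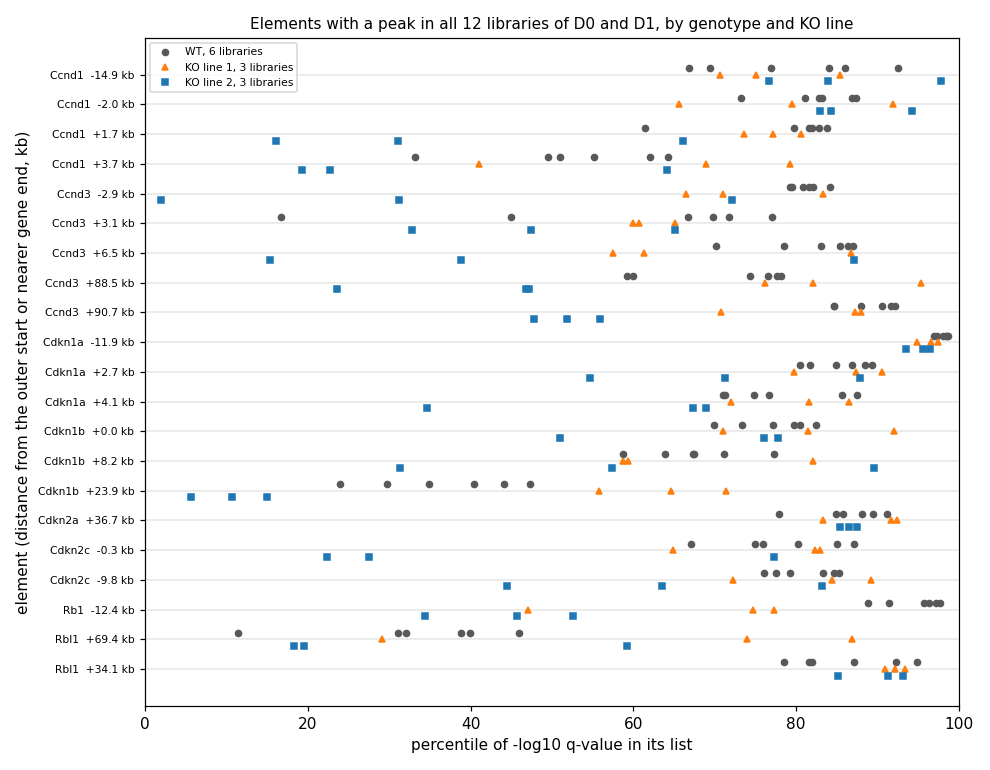
Within-list percentile of the member elements that each of the 12 D0 and D1 libraries called, 1 point per library, by genotype and KO line. At the Rb1 element the KO points, 34.4 to 77.2, lie below the WT points, 88.8 to 97.6.

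Rbl1, the gene of p107 (GeneID 19650, chr2:157145893-157204534, minus strand), had its strongest element inside the gene at +34.1 kb (chr2:157170209-157170621), called in all 18 libraries at 76.9 to 94.8 in WT and 69.4 to 93.4 in KO. Its start (chr2:157204299-157205052), the promoter with an E2F match, was weak in WT: 1.96 at D0, 6.09 and 9.90 at D1 CTL, and 7.67 at D1 MR, each near the bottom of its list. KO values were 56.4 and 1.48 at D0 and 46.9 and 31.4 at D1 CTL. No KO library of D1 MR and no library of D5 had it, with fewer calls at D5 (exact permutation p = 0.0278, adjusted p = 0.0420). It was 1 of 3 member elements that both KO lines had at D1 CTL and neither had at D1 MR (5.36% of 56, against 4% of all regions). The others were the Ccnd1 element at −11.6 kb and the Ccnd2 element at −15.6 kb, and 0 were gained (against 0.369%). The D1 MR lists of the KO lines held 48460 and 35201 peaks and the D1 CTL lists 61045 and 46664, and the part of that difference was not tested.

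Condition by condition, the elements missing from both KO lines and present in both WT libraries were 6 of 67 at D0 (8.96%, against 5.36% of all regions), 7 of 66 at D1 CTL (10.6%, against 6.45%) and 18 of 76 at D1 MR (23.7%, against 17.7%). Of these, 5, 5 and 9 were at Ccnd3. That gene was chosen for this difference, so the totals are not read against the shares of all regions. The others were 1 at Ccnd2 at D0 and 2 at Cdkn1a at D1 CTL. At D1 MR they were 4 at Ccnd2, 4 at Cdkn1a and 1 at Cdkn1b. Elements in both KO lines and neither WT library numbered 2 at D0 (2.99%, against 2.51%), 1 at D1 CTL (1.52%, against 5.41%) and 0 at D1 MR (against 1.61%).

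The rest of the pathway was read from 28 other cell cycle genes, among them cyclin-dependent kinases (Cdk2, Cdk4, Cdk6), the E2F factors E2f1 to E2f8 and the third family member Rbl2, with 216 elements. Calls differed between the genotypes at 7 of 43 testable elements, all less often in KO (16.3%, near the 16.1% of all regions): 2 at E2f4 and 1 each at Ccne1, Ccna2, E2f1, E2f8 and Cks1b. Calls were less frequent at D5 at 13 of 19 testable elements (68.4%, against 66.2%), and 0 of 8 changed with restriction. The cyclin gene Ccna2 and the factor gene E2f3 had a gene-end peak in 20 libraries, including the short lists. Cdkn2b had no element.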

How the data were processed

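ATAC-seq of 20 libraries was analysed from the broad-peak list deposited for each. Per the submitters' processing notes the build is GRCm38. The aligner and peak caller are not given in the sources used here. Libraries were amplified with 10 PCR cycles, per the labels' protocols. In each deposited list the authors give a peak's score, a fold enrichment (ratio), a −log10 p-value and a −log10 q-value, whose lowest value in any list was 1.00. These values depend on depth, which is unknown, so calls and within-list percentiles were compared in place of the values themselves. Calls and percentiles also vary with the length of a list, and that part was not removed in the main comparisons.

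Overlapping peaks (1 bp or more) among the 787806 were joined into 101352 regions (median 172 bp), and a region's percentile was that of its strongest peak. Genes and starts came from RefSeq (GRCm38.p6). Exact stratified permutation tests ran over all regions, with Benjamini-Hochberg adjustment over those whose calls allow a p of 0.05 (threshold 0.05), in Python 3.11.15 with numpy 2.4.6 and scipy 1.17.1, and were tested on simulated data. No 2 lists were identical. The result for 1 of the marker genes is not reported here.

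Members, lists and tests were chosen with earlier results of these data known. Named elements are those at gene starts or ends, those past a threshold, those with the largest differences in calls by genotype at D0 and D1 or by day or medium in WT, and each gene's strongest. Others named beside these were chosen after their values were seen. KO line numbers pair libraries across days and media as the same cell line (correlation of deviations 0.258 to 0.396), whereas WT numbers do not (−0.0296 to 0.0450). Alternatives were the length of the lists, a q-value minimum, the coverage that counts as a call, the joining distance, the window, the replicate block and libraries left out.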

Additional observations from a re-analysis of the deposited data

How the results depend on the processing

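The count of elements called less often in KO was 9 over the 10 genes and 4 without Ccnd3, whose elements say nothing on stability because that gene was chosen for this difference. Without the D5 libraries of KO line 1, whose lists hold none of the elements, the count was 6 (2 without Ccnd3). It was 5 when each list was limited to 20000 peaks (3 without Ccnd3), 5 at a −log10 q-value of at least 5 (2), 0 when a peak had to cover 50% of the element (0, with 8 at an unadjusted p under 0.05) and 3 without all D5 libraries (0, with 1 at an unadjusted p under 0.05). Leaving out 1 WT replicate or KO line gave 0 to 6 (0 to 2 without Ccnd3). The count of elements called less often at D5 was 10, and it was 0 with lists limited to 20000 peaks (1 at an unadjusted p under 0.05), 5 at 50% coverage (3 of them among the 10) and 0 without the D5 libraries of KO line 1. Leaving out 1 WT replicate or KO line gave 0 to 7 (0 to 6 among the 10). With fewer libraries fewer arrangements exist, so the smallest p is larger. Restriction called 0 in each alternative, some of which left no member element to test, and the rank test called 0 in each. The smallest possible p of the exact rank test had an adjusted p of 0.0924 in the main setting. With 1 WT replicate or KO line left out it had 0.120 to 0.490, so the 0 of the rank test says nothing on stability there. With the replicate number as a block, the genotype count was 10 (4 without Ccnd3) and the D5 count 6, and with the block in KO lines only, where the lines pair libraries, the D5 count was 11. WT replicates share only a number. For the 10 elements of the D5 test, no direction reversed, and 43 values under alternatives passed, 17 did not and 50 allowed no test. The count of elements was 70 within 10 kb, 140 within 50 kb, 92 with peaks joined and 63 at a −log10 q-value of at least 5. The peak-free stretch at Cdkn2a kept its length of 247.3 kb at that minimum. Read depth is unknown, and KO at D5 rests on 1 line.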

Other observations

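By calls in the 20 libraries, 12 of 21631 protein-coding genes showed, within 1 kb of a gene end, the same pattern as the intragenic Ccnd3 element, present in 10 of 10 WT libraries and 0 of 10 KO libraries. The first 5 by name were A430005L14Rik, Gab2, Kcnab2, Mamstr and Mdga1. Mdga1 is on chromosome 17, as Ccnd3 is, and the others are on chromosomes 4 and 7.

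Among muscle genes of later differentiation, Myog had a gene-end peak in 8 WT libraries and no KO library, and Ckm in 5 WT libraries and no KO library, whereas Acta1 had one in 8 WT libraries and 1 KO library. The gene ends of Cdkn1b and Cdkn2c had one in 10 WT libraries and in 8 KO libraries each.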
